A study of Mus musculus with 2 samples.

Results

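YY1, a zinc finger transcription factor, was examined at 37 genes of mitochondrial protein import and folding, among 21887 protein-coding genes of the nuclear genome. The genes were chosen with earlier results of these data known. They were taken by name, as all Timm and Tomm symbols followed by a number. Pam16, Dnajc19, Samm50, Mtx1, Mtx2, Pmpca, Pmpcb, Hspa9, Hspd1, Hspe1, Grpel1 and Grpel2 were added. The cold library came from mature adipocytes of the inguinal fat pad of male wild-type C57 mice kept in the cold for 7 days. The room temperature library came from the same cells of such mice raised at room temperature. Mice were 8 to 10 weeks old, fat was digested with collagenase, and there was 1 library per condition. The number of animals per library is not stated in the labels. The labels name ChIP-seq, but the protocol is CUT&Tag, where an antibody brings a transposase to the bound protein and the DNA beside it is cut and tagged. Open chromatin can be tagged without YY1, and the lists do not separate the 2 sources.

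Most proteins of mitochondria are made in the cytosol and imported. Precursors pass the outer membrane through the TOM complex (Tomm proteins) and then take separate routes. The TIM23 complex and its motor (Timm17, Timm23, Timm44, Timm50 and the chaperone Hspa9 with its helpers) bring proteins with a presequence into the matrix. The TIM22 complex and the small Tim chaperones serve carrier proteins, and the SAM complex (Samm50 with the metaxins Mtx1 and Mtx2) places barrel proteins in the outer membrane. In the matrix, the processing peptidase (Pmpca and Pmpcb) cuts off the presequence, and the chaperonin (Hspd1 and Hspe1) folds what arrives. Adipocytes carry more mitochondria when they turn thermogenic in the cold.

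The cold list held 1259 peaks and the room temperature list 165. Peak names carry the number 4 in the cold list and 30 in the room temperature list, with no meaning given. If the numbers were temperatures, the mice of the second library were housed warmer than the label says. A pileup is the number of fragments over a peak's summit, recovered from the deposited fold and p, with an exact 95% Poisson interval that covers counting error only. The total depth of each library is unknown. None of 6 adipocyte marker genes and none of 4 thermogenic ones had a peak in either library, nor did any macrophage or fibroblast marker. Of 4 endothelial markers 1 had a peak, in the cold library. Peaks say nothing of how strongly these markers are expressed, so the counts do not check the cell type.

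YY1 was listed at 8 of the 37 import genes after cold (21.6%, 95% interval 9.83 to 38.2, Clopper-Pearson) and at 1 of 37 at room temperature (2.70%, 0.0684 to 14.2). A gene counted when a summit lay inside it or within 1 kb of either end. Of all protein-coding genes, 6.42% had such a cold summit and 0.864% a room temperature summit. The interval of the import genes lies above the background after cold. The genes were chosen with earlier results of these data known, so this is no independent check of an excess. At room temperature the interval includes the background, but with 1 gene listed it is too wide to decide. The intervals therefore do not show that the import genes stand apart from the background in cold only. Among the 32 import genes with a RefSeq promoter entry, a set taken after the data were seen, 5 had a cold peak (15.6%, 5.28 to 32.8). This interval includes the 6.68% of all genes with such an entry. The difference from other genes was not tested, and the expression of the genes, in which they may differ from the background, was not measured. With 1 library per condition, no difference between cold and room temperature has a replicate check. The 8 cold peaks lay at Tomm40l, Timm44, Timm50, Timm21, Hspa9, Mtx1, Samm50 and Timm8b, and only the one at Tomm40l was also listed at room temperature.

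Promoters were searched for letters of the known YY1 motif, chosen with earlier results of these data known. The letters AANATGGCG hold the core ATGGCG of the known YY1 motif, and both were searched on both strands of RefSeq promoters (GRCm38.p6). These windows run from 250 bases before to 50 after the annotated gene start, and 32 of the 37 genes have one, so letters farther into a gene were not searched. The other 5 are Tomm40l, Tomm7, Hspa9, Grpel2 and Timm21. For the 4 import genes that hold AANATGGCG, the 50 bases on each side of the gene start are given 5′ to 3′ along the gene, with these letters in capitals. The genes are Mtx1 (chr3:89213858-89213957, minus strand), Timm44 (chr8:4275856-4275955, minus), Samm50 (chr15:84192190-84192289, plus) and Timm50 (chr7:28311997-28312096, minus).
Mtx1: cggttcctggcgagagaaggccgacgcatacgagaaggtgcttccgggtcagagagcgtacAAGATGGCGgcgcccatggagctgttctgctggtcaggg
Timm44: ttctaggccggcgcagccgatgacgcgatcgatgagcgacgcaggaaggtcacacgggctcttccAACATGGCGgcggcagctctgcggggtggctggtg
Samm50: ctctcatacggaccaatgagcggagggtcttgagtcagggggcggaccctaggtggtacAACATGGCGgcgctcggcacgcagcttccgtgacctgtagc
Timm50: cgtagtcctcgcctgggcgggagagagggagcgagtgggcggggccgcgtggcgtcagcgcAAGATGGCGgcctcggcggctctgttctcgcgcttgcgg

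All 4 of these genes had a cold YY1 peak. In each, the letters stood on the gene's own strand just after the gene start, at bases 12 to 20 in Mtx1 and Timm50, 16 to 24 in Timm44 and 10 to 18 in Samm50. Both AANATGGCG and ATGGCG contain ATG, the letters of a start codon. The gene annotation used gives no exons, so overlap of the letters with the start of the coding sequence was not tested. Over all protein-coding genes, 284 of 667 AANATGGCG sites in these windows (42.6%) stood on the gene's strand after its start. Such a site was in 15.3% of promoters with a cold peak (13.3 to 17.5) and 0.643% of those without (0.526 to 0.778). The 3 letters before ATGGCG were AAG in Mtx1 and Timm50 and AAC in Timm44 and Samm50, where AA is fixed by the letters searched. In all 4 genes GC followed. The cold summits lay downstream of the centre of the letters, by 57 bp in Mtx1, 56 bp in Timm44, 14 bp in Samm50 and 76 bp in Timm50. Over all protein-coding genes with AANATGGCG and a cold summit within 250 bp of it, the median distance, upstream or downstream, was 43 bp (quartiles 23 and 62, 346 genes).

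The fifth import gene with both a promoter entry and a peak, Timm8b, held only the shorter ATGGCG, on the opposite strand, and 3 genes with the shorter letters had no peak. These were Grpel1, Pmpca and Pmpcb, which were picked for display after their values were seen. Bases -160 to -61 of Timm8b (chr9:50603741-50603840, plus strand) are shown with ATGGCG in capitals, which reads as its reverse complement there. For the others, the first 50 bases on each side of the gene start are shown in the same way, for Grpel1 (chr5:36465135-36465234, plus), Pmpca (chr2:26389298-26389397, plus) and Pmpcb (chr5:21737110-21737209, plus).
Timm8b: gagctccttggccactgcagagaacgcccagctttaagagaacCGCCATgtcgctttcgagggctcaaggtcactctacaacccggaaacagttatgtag
Grpel1: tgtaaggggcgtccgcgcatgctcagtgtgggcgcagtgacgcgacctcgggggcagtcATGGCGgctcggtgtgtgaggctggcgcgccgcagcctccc
Pmpca: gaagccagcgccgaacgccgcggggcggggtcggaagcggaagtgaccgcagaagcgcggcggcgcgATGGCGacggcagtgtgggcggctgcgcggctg
Pmpcb: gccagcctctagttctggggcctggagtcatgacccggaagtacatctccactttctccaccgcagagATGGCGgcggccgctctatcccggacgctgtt

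In Grpel1, Pmpca and Pmpcb the shorter letters also stood on the gene's strand just after its start, at bases 10 to 15, 18 to 23 and 19 to 24. The 3 letters before them were GTC, GCG and GAG in this order, and GAC in Timm8b. That none begins with AA follows from how these genes were picked. After the shorter letters came GC in Grpel1 and Pmpcb, as in the genes with AANATGGCG, AC in Pmpca and GT in Timm8b.

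**Figure D1:**
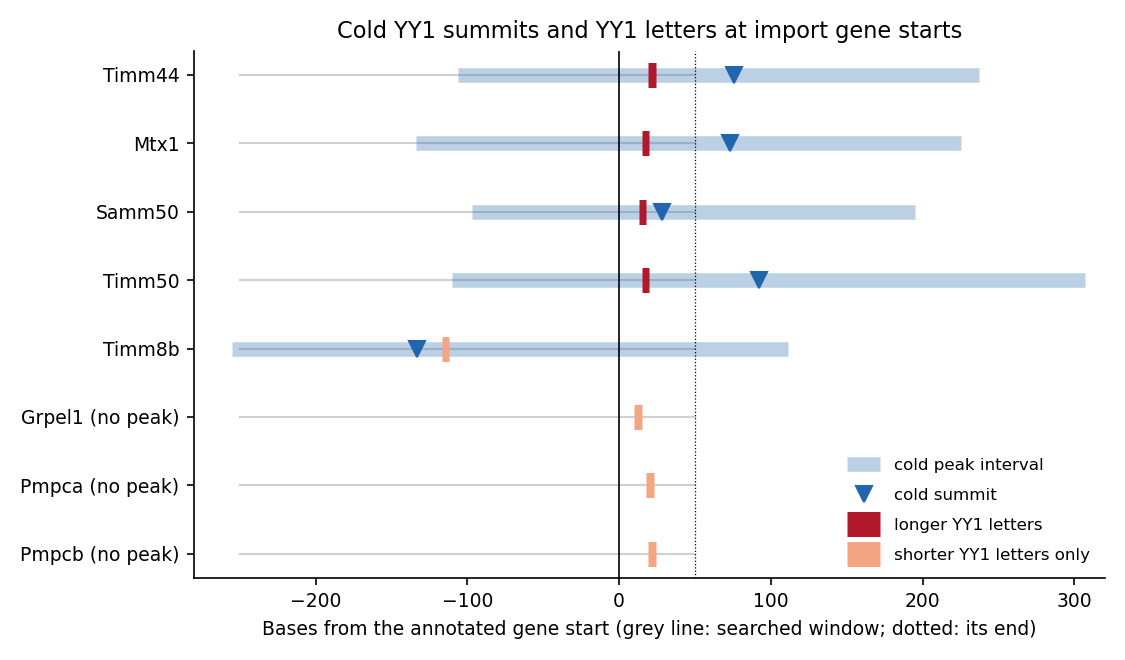
Position of cold YY1 summits (triangles), cold peak intervals (blue bars) and YY1 letters (red, AANATGGCG; orange, only ATGGCG) at 8 import genes, in bases from the annotated gene start along the gene. In Timm44, Mtx1, Samm50 and Timm50 the letters lie between bases 10 and 24 and the summit downstream of them, while Grpel1, Pmpca and Pmpcb have the shorter letters and no peak.

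AANATGGCG was thus found in 4 of 5 import promoters with a cold peak (80%, 28.4 to 99.5) and in 0 of 27 without one (0 to 12.8%). Over all 17492 protein-coding genes with a promoter entry, it was in 375 of 1168 with a cold peak (32.1%, 29.4 to 34.9) and in 262 of 16324 without (1.60%, 1.42 to 1.81). Overall it was in 3.64% of promoters. Read the other way, all 4 import genes with AANATGGCG had a cold peak (39.8 to 100%), and 375 of 637 such genes in the genome did (58.9%, 54.9 to 62.7). The association of letters and peaks was therefore seen across the genome, and nothing here sets the import genes apart from other genes with the letters. The import intervals are wide because only 5 of the genes with a peak have a promoter entry.

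The shorter ATGGCG was in 5 of 5 import promoters with a cold peak (47.8 to 100%) and in 3 of 27 without (11.1%, 2.35 to 29.2), against 46.8% and 9.94% of all promoters with and without a peak, and 12.4% of all. The 5 are the 4 genes with AANATGGCG, counted above, and Timm8b, whose letters and summit lie inside the neighbouring gene Sdhd. Of the 1532 genes that hold ATGGCG but not AANATGGCG, 172 had a cold peak (11.2%, 9.69 to 12.9). The stricter AAGATGGCG was in 2 of 5 import promoters with a cold peak and 0 of 27 without, and in 2.14% of all.

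Letters of factors known for nuclear genes of mitochondrial proteins were searched in the same windows. The ETS family letters CCGGAAG were common in import promoters, in 16 of 32 (50%, 31.9 to 68.1) against 12.9% of all promoters. They were in 2 of 5 import promoters with a cold peak and in 14 of 27 without. The windows of Hspd1 and Hspe1 overlap and hold the same CCGGAAG sites, so these genes are not independent entries of the share and its interval. Over all protein-coding genes, the ETS letters were in 23.2% of promoters with a cold peak (20.8 to 25.7) and 12.2% of those without (11.7 to 12.7). The NRF1 letters GCGCATGCG were in 0 of 5 with a cold peak and 1 of 27 without, Timm13, against 2.61% of all. Of all promoters with and without a cold peak, 6.08% and 2.36% held the NRF1 letters. GC content had a median of 60.3% in import promoters with a cold peak and 58.0% in those without, and of 56.3% over all promoters. The number of CG pairs per 300 bases, which both YY1 and ETS letters contain, had a median of 22 in import promoters with a cold peak and 19 in those without. It was 21.5 and 12 in all promoters with and without a cold peak. The part of this composition in the shares of letters was not tested.

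**Figure D2:**
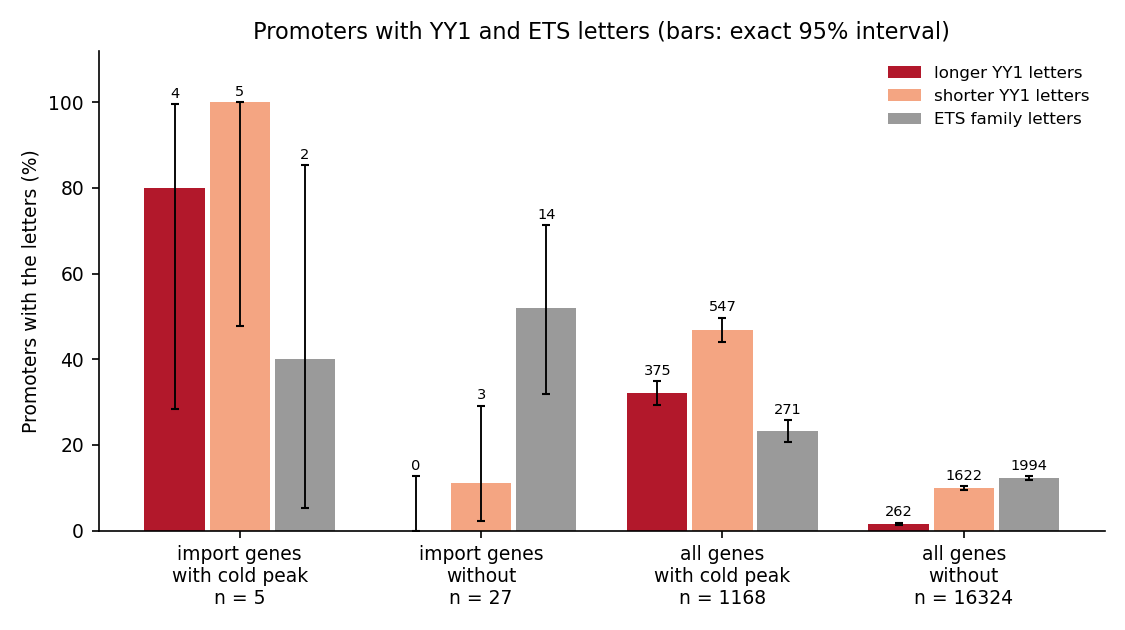
Percent of promoters that hold the longer YY1 letters (AANATGGCG), the shorter ones (ATGGCG) and the ETS family letters (CCGGAAG), for import genes and for all protein-coding genes, each with and without a cold peak. Bars show the share with its exact 95% interval and the number above each is the count of promoters; the longer YY1 letters are in 4 of 5 import promoters with a peak and in 0 of 27 without.

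Among the 10 genes with a Tomm symbol, grouped by name alone, only Tomm40l had a peak, listed in both libraries (10%, 0.253 to 44.5 in each). Of all protein-coding genes, 6.42% had a cold peak and 0.864% a room temperature one. The peak at Tomm40l was the strongest of the import genes after cold and their only one at room temperature. Tomm40l encodes a relative of the import channel Tomm40. Its summit carried 79 fragments after cold (62.5 to 98.5) and 23 at room temperature (14.6 to 34.5), where the median peak carried 20 and 13. It ranked 28 of 1259 after cold and 18 of 165 at room temperature. The pileups differed 3.43-fold (2.14 to 5.73 from counting error alone), close to the median of 3.31 (quartiles 2.63 and 4.18) over 154 peaks in both lists with a background of at most 10 fragments. Both intervals covered the same place (chr1:171222206-171222750 after cold, chr1:171222349-171222623 at room temperature, mm10), and their summits were 1 bp apart. The cold summit lay inside Tomm40l, 44 bp from the gene's end, and also inside Apoa2, an apolipoprotein gene that overlaps it. No summit came within 1 kb of the channel gene Tomm40, the receptor genes Tomm20, Tomm22 and Tomm70a, the small subunit genes Tomm5, Tomm6 and Tomm7, Tomm34 or Tomm20l.

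Of the 11 genes of the presequence translocase and its motor, 4 had a cold peak (36.4%, 10.9 to 69.2) and 0 a room temperature one, where 6.42% and 0.864% of all protein-coding genes did. Timm44, which tethers the motor chaperone to the translocase, had 24 fragments (15.4 to 35.7) at chr8:4275669-4276012. Hspa9, the mitochondrial Hsp70 that drives the motor, had 19 (11.4 to 29.7) at chr18:34954739-34955303. Its summit lay 532 bp outside the gene, the farthest of the 8, with no other gene within 1 kb.

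Timm21, which helps TIM23 take over precursors from TOM, had 16 fragments (9.15 to 26.0) at chr18:84951322-84951648, 16 bp inside its end. That summit also lay inside Fbxo15, an F-box protein gene that spans Timm21. Timm50, the presequence receptor of TIM23, had 11 (5.49 to 19.7) at chr7:28311740-28312157, inside the overlapping lncRNA gene Gm51445 as well. By pileup only the peak of Timm44 among these 4 was above the median of the cold list, and by −log10 q that of Hspa9 was as well, at rank 586 of 1259. The genes of the channel (Timm17a, Timm17b, Timm23), of the co-chaperones Pam16 and Dnajc19 and of the exchange factors Grpel1 and Grpel2 had no peak.

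Of the 3 SAM genes, 2 had a cold peak (66.7%, 9.43 to 99.2), where 6.42% of all protein-coding genes did. Mtx1 carried 25 fragments (16.2 to 36.9) at chr3:89213683-89214042, and Samm50, which encodes the barrel core of the complex, 17 (9.90 to 27.2) at chr15:84192142-84192434. Neither summit had another gene within 1 kb, and neither gene was listed at room temperature. Mtx2 had no peak in either library.

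Of the 9 genes of the carrier route, Timm8b alone had a peak, after cold (11.1%, 0.281 to 48.2), where 6.42% of all protein-coding genes did. The peak carried 9 fragments (4.12 to 17.1) at chr9:50603646-50604012. It was the weakest of the 8, at rank 1203 of 1259. Timm8b encodes a small Tim chaperone and lies head to head with Sdhd, a subunit gene of respiratory complex II, with 52 bp between their starts. The summit was 133 bases before the start of Timm8b and at base 82 inside Sdhd, and the letters ATGGCG ran from base 61 to 66 of Sdhd, on its strand. By the nearest gene end the peak goes to Sdhd. Timm22, Timm29, Timm9, Timm10, Timm10b, Timm13, Timm8a1 and Timm8a2 had no peak.

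The processing peptidase genes Pmpca and Pmpcb and the chaperonin genes Hspd1 and Hspe1 had no peak in either library. Hspd1 and Hspe1 overlap by 96 bp at their starts, so a summit there would have counted for both. Timm9 and Tomm20l overlap by 51 bp at the ends away from their starts.

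**Figure D3:**
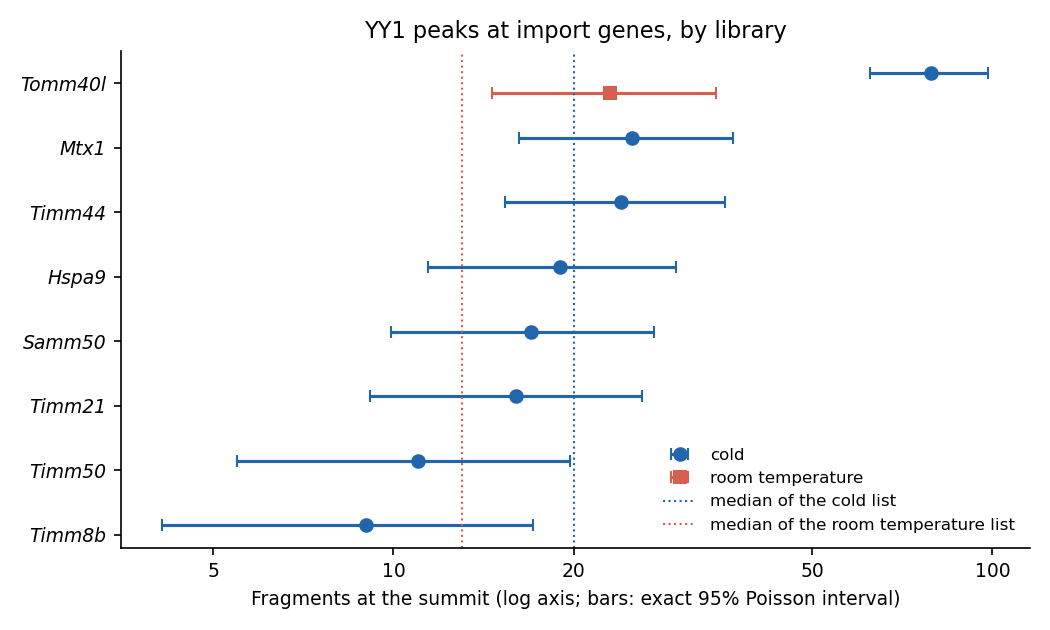
Fragments at the summit of each import gene peak after cold (circles) and at room temperature (square), on a log axis with exact 95% Poisson intervals; dotted lines mark the median of each list. Tomm40l carried 79 and 23 fragments, and the other 7 genes, with no room temperature entry, carried 9 to 25 after cold.

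The 8 cold peaks were spread over the strength range of their list, with a median of 18 fragments against 20 for the list. By pileup, Tomm40l, Mtx1 and Timm44 were above the list's median. Summits lay close to gene ends, 6 inside the gene and 2 outside. In the 5 genes with a known start, they lay at base 28 (Samm50), 73 (Mtx1), 76 (Timm44), 92 (Timm50) and -133 (Timm8b). Of the 943 cold summits within 1 kb of a protein-coding gene start, 39.2% lay between bases 1 and 100, with a median at base 66. The 29 genes without a cold peak were not near misses of the 1 kb window. The nearest, Pmpcb, was 35.4 kb from a cold summit, and the median distance was 163 kb.

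For the other 7 genes, a room temperature pileup below the listing threshold has no value. Their cold pileups were 9 to 25 fragments, and the weakest listed room temperature peak had 6. The cold list was divided by −log10 q into 10 classes of equal size, from the strongest to the weakest. In the first, which holds Tomm40l, 61.1% of cold peaks were also listed at room temperature (52.0 to 69.7). The share was 13.5% (8.06 to 20.7) in the third, with Timm44, 5.56% (2.26 to 11.1) in the fifth, with Mtx1 and Hspa9, and 4.76% (1.77 to 10.1) in the sixth, with Timm21. It was 1.59% (0.193 to 5.62), 3.17% (0.872 to 7.93) and 2.40% (0.498 to 6.85) in the classes of Samm50, Timm50 and Timm8b. Most cold peaks of the strength of these 7 had no room temperature entry, at import genes and elsewhere.

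**Figure D4:**
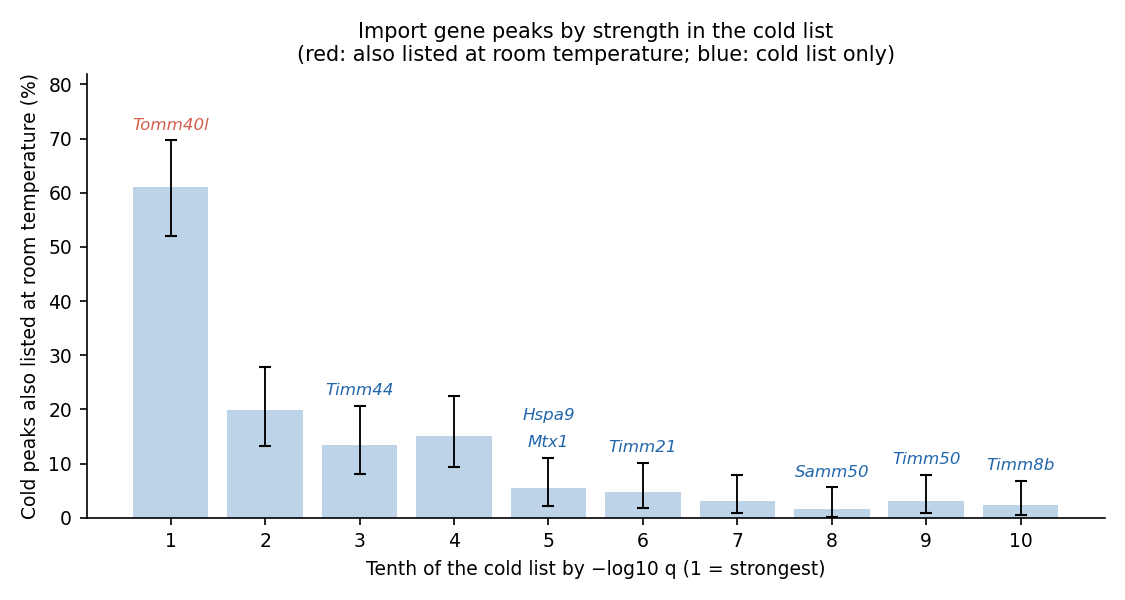
Percent of cold peaks that were also listed at room temperature, by strength class of the cold list (1 the strongest of 10), with exact 95% intervals and the import genes named above their class. Tomm40l, in red, is in the first, where 61.1% were listed in both; the 7 genes of the cold list only, in blue, are in classes where 1.59% to 13.5% were.

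A further 40 genes of import, maturation, folding and quality control, not part of the 37, were counted in the same way. After cold 10 of 40 had a peak (25%, 12.7 to 41.2) and at room temperature 1 of 40 (2.50%, 0.0633 to 13.2), where 6.42% and 0.864% of all protein-coding genes did. These 40 were also chosen with earlier results of these data known, so they are no independent check of an excess. Oxa1l, the inner membrane insertase, was the one in both lists, with 65 fragments after cold (50.2 to 82.8) and 16 at room temperature (9.15 to 26.0). Its promoter holds AANATGGCG at bases 12 to 20, on its own strand, and its cold summit lay 52 bp upstream of the centre of the letters. Mtx3, the third metaxin gene, had 26 fragments after cold (17.0 to 38.1), with the letters at bases 17 to 25. The prohibitin gene Phb2 had 34 (23.5 to 47.5) at a summit beside Emg1. The others were Dnlz with 35, Dnaja3 with 21, Clpb with 19, Mtch2 with 17, Htra2 with 16, Chchd6 with 14 and Afg3l1 with 10. The summits of Dnlz and Htra2 also lay inside or within 1 kb of other protein-coding genes, Card9 and Aup1. The peak of Afg3l1 ranked 1231 of 1259, with its summit at base 739. In this set AANATGGCG was in 3 of 9 promoters with a cold peak and in 2 of 27 without, where 32.1% and 1.60% of all promoters with and without one held it. The letters were not always just after the start of a gene with a peak. In Phb2 they lay at bases -141 to -133. Parl, which had no peak, held them on its own strand at bases 33 to 41, and Immp1l, also with no peak, on the opposite strand at bases -155 to -147.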

How the data were processed

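YY1 CUT&Tag peaks of 2 libraries, 1 per condition, were used as the authors deposited them, 1 list per library. The submitters' processing notes name mm10 and the tools MACS2, BWA, SAMtools, DESeq2 and deepTools; their versions and settings, and whether a control library was used, are not stated there. Each deposited peak has a score (the whole part of 10 times its −log10 p), a fold enrichment ratio over local background, a −log10 p and −log10 q, and a summit, here 1-based.

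Pileups were solved from fold = (pileup + 1) / (background + 1) and the Poisson p. All 1259 cold and 165 room temperature entries were solved to within 0.0002 of the −log10 p, and 1 cold entry had a second solution. This was tested on simulated data, as were gene assignment and letter search. Fragments may include PCR copies, and intervals cover counting error only. Genes and strands came from RefSeq tables of GRCm38.p6, the assembly of mm10, which give no exons. Peaks in both lists overlapped by at least 1 bp.

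The genes, the second list of 40 and the letters were chosen with earlier results of these data known. Named were all genes with a peak; sequences were shown for those with AANATGGCG or ATGGCG. No test between conditions was possible. Python 3.11.15, pandas 2.3.3, SciPy 1.17.1 and matplotlib 3.10.9 were used.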

Additional observations from a re-analysis of the deposited data

How the results depend on the processing

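Of 26 values under an alternative, 23 stayed within 1.5 times the reported count or within the interval or quartiles of the reported value, and 3 moved. The count of 8 import genes with a cold peak was 7 or 8 under a stricter −log10 q, other windows, gene ends only, peak intervals, the nearest gene end and a narrower reading of the gene names. It moved to 1, Tomm40l, with only the 165 strongest cold peaks, which leaves fewer peaks by construction. It moved to 5 of 32 when only genes with a promoter entry were counted, with an interval that then includes the background, a setting chosen after the data were seen, as was the search on the gene's own strand between bases 1 and 50. The room temperature count of 1 moved to 0 without Tomm40l, Tomm20l, Timm8a1 and Timm8a2, the 4 Timm and Tomm symbols with a lower case l or a letter and a further number after their first number. Timm8b was lost at a −log10 q of at least 5 and by the nearest gene end, and Hspa9 with a window of 500 bp. The pileup ratio at Tomm40l was 3.24 after scaling by the lowest backgrounds and 3.13 from the deposited fold. The share of import promoters with YY1 letters was 12.5% for AANATGGCG, 6.25% for the stricter letters and 25% for the shorter ones. Both alternatives count as unmoved because the interval of the reported share is wide (3.51 to 29.0), so this share depends on the choice of letters. The search of letters around the summits was not run, since no genome was used here. No paired analysis was possible because cold and room temperature have 1 library each, and for the same reason no library could be left out. Low pileups limit single genes: the interval of Timm8b runs from 4.12 to 17.1 fragments.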
